A study of Mus musculus with 5 samples.

Results

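The comparison described here set C2C12 myoblasts at day 2 of differentiation against proliferating C2C12 myoblasts, microRNA by microRNA. Its members were the 4 arrays of the day 2 cells and the 4 arrays of the proliferating cells, 8 of the 20 arrays of the series, read over the 343 probes with a mouse miRNA name among 1488 distinct probes. C2C12 is a mouse myoblast line that leaves the cell cycle and fuses into myotubes when serum is lowered. Day 2 cells had been in 2% horse serum for 2 days, and proliferating cells were harvested at 70 to 80% confluence. No gene deletion, transgene or drug is named in the labels for either group. Each array carried total RNA of 1 sample in 1 dye and a pool of 4 proliferating replicates in the other dye, and each stage was labelled as 4 biological replicates, 2 in Cy3 and 2 in Cy5.

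A miRNA is a short RNA that guides the silencing complex to messenger RNAs, mostly through its seed, bases 2 to 8, so that miRNAs with 1 seed share many targets. Skeletal and heart muscle make a set of miRNAs, among them miR-206, miR-1, miR-499 and the miR-133 family, largely from loci driven by the myogenic transcription factors, while miRNAs of the miR-17-92 cluster are transcribed under MYC and E2F in dividing cells and target cell cycle regulators. Muscle miRNAs are known to accumulate as myoblasts stop dividing and differentiate.

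The mature sequences below are those the comparison turns on, from RefSeq on GRCm38.p6, with the seed in capitals. The first pair are neighbouring muscle genes, whose probes gave the highest ratios. The probe of miR-133b is shared with miR-133a, which is encoded at other loci.
miR-206-3p: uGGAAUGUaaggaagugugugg
miR-133b-3p: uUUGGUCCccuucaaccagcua
Next come 3 miRNAs of the miR-17-92 cluster that fell, and 3 from other loci that have the seed of miR-17-5p and did not pass the test.
miR-17-5p: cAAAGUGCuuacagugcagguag
miR-20a-5p: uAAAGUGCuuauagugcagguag
miR-18a-5p: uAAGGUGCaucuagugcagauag
miR-106a-5p: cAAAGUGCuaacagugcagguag
miR-20b-5p: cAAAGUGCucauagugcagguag
miR-106b-5p: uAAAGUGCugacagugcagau
The third set are the other falls with the smallest p, miR-222 and miR-15b, each with its partner from the same locus.
miR-221-3p: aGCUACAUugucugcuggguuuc
miR-222-3p: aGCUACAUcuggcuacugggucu
miR-15b-5p: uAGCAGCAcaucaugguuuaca
miR-16-5p: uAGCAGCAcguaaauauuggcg
The last are miR-26a, which rose, and the pair miR-27b, which rose, and miR-27a, which did not pass.
miR-26a-5p: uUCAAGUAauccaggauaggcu
miR-27b-3p: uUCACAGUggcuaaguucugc
miR-27a-3p: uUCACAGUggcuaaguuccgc

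The probes themselves were named by the miRNA, and the sequence of a probe was not used here. Of 42 names looked up, 38 had a mature sequence in the table used. Mir206 and Mir133b lie on chromosome 1, with the mature arms at chr1:20679055-20679076 and chr1:20682834-20682855 on the plus strand. Mir17, Mir18 and Mir20a follow each other on the plus strand of chromosome 14, with mature arms at chr14:115043684-115043706, chr14:115043867-115043889 and chr14:115044183-115044205. Mir221 and Mir222 lie on the minus strand of the X chromosome at chrX:19146307-19146329 and chrX:19146901-19146923.

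Neither labels nor files say in which dye an array's sample was labelled. It was taken to be the channel that lay farther from the same dye's channel on the proliferating arrays, over 173 probes, which put the day 2 sample in green on arrays 1 and 4 and in red on arrays 2 and 3. The distances of the 2 channels differed by 0.194, 0.103, 0.140 and 0.205 on arrays 1 to 4, and without the muscle-specific miRNAs by 0.0817, 0.0324, 0.0605 and 0.0695 with the same channel farther on all 4. Red over green correlated across these probes at 0.542 and 0.893 between arrays turned alike and at -0.528 to -0.407 between arrays turned oppositely, and after turning at 0.485 to 0.833 over the 180 probes tested. These correlations bear on how the arrays lie relative to each other and not on the direction of all of them. The direction rests on the distance of the channels and on the design, in which the pool and the proliferating samples are of the same stage. It is likely and not given, and under the opposite orientation of all the arrays each rise given here would become a fall of equal size. Because each array was turned by its own values, the number of arrays on 1 side is a description. The fit and its adjusted p values take this turning as given and do not carry its uncertainty. The proliferating arrays could not be turned, so their values are used as sizes only.

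Of the 343 mouse probes, 180 had signal above the array's empty and negative-control spots often enough to be tested and 163 did not. Mouse probes passed this level in the sample channel in numbers of 193, 161, 142 and 143 on day 2 arrays 1 to 4, and in the pool channel in numbers of up to 230. The 2 spots of a probe differed by a median of 0.103 to 0.200 on the log2 scale, and array 3 had the lowest correlation between them, 0.810. Array 2 gave the highest of the 4 ratios for 73 of the 180 probes and array 3 the lowest for 61. The number of arrays, 4 per stage, limits the precision of each value. RNA came from whole cultures, so more cells expressing a miRNA and more of it per cell cannot be told apart.

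By day 2, 35 of the 180 tested probes, or 19.4%, had moved from the proliferating pool at an adjusted p under 0.05 (limma, 2-sided, Benjamini-Hochberg over the 180). Rises made up 22 of them, 12.2% of those tested, and falls 13, or 7.22%. Only 6 of the 35 changed by 2-fold or more, 4 up and 2 down. The median log2 ratio over all tested probes was -0.01, and its 5th to 95th percentile ran from -0.43 to 0.61. The 4 rises of this size were those of miR-1, miR-206 and miR-133a/miR-133b, which are muscle-specific, and of miR-422b, and the 2 falls were those of miR-17-5p and the brighter of 2 miR-20a probes. The other 29 changes were smaller. Without day 2 array 1 the count was 23, and with the proliferating arrays as the control in place of the pool it was 15 to 31, depending on which of 6 orientations they were given.

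**Figure D1:**
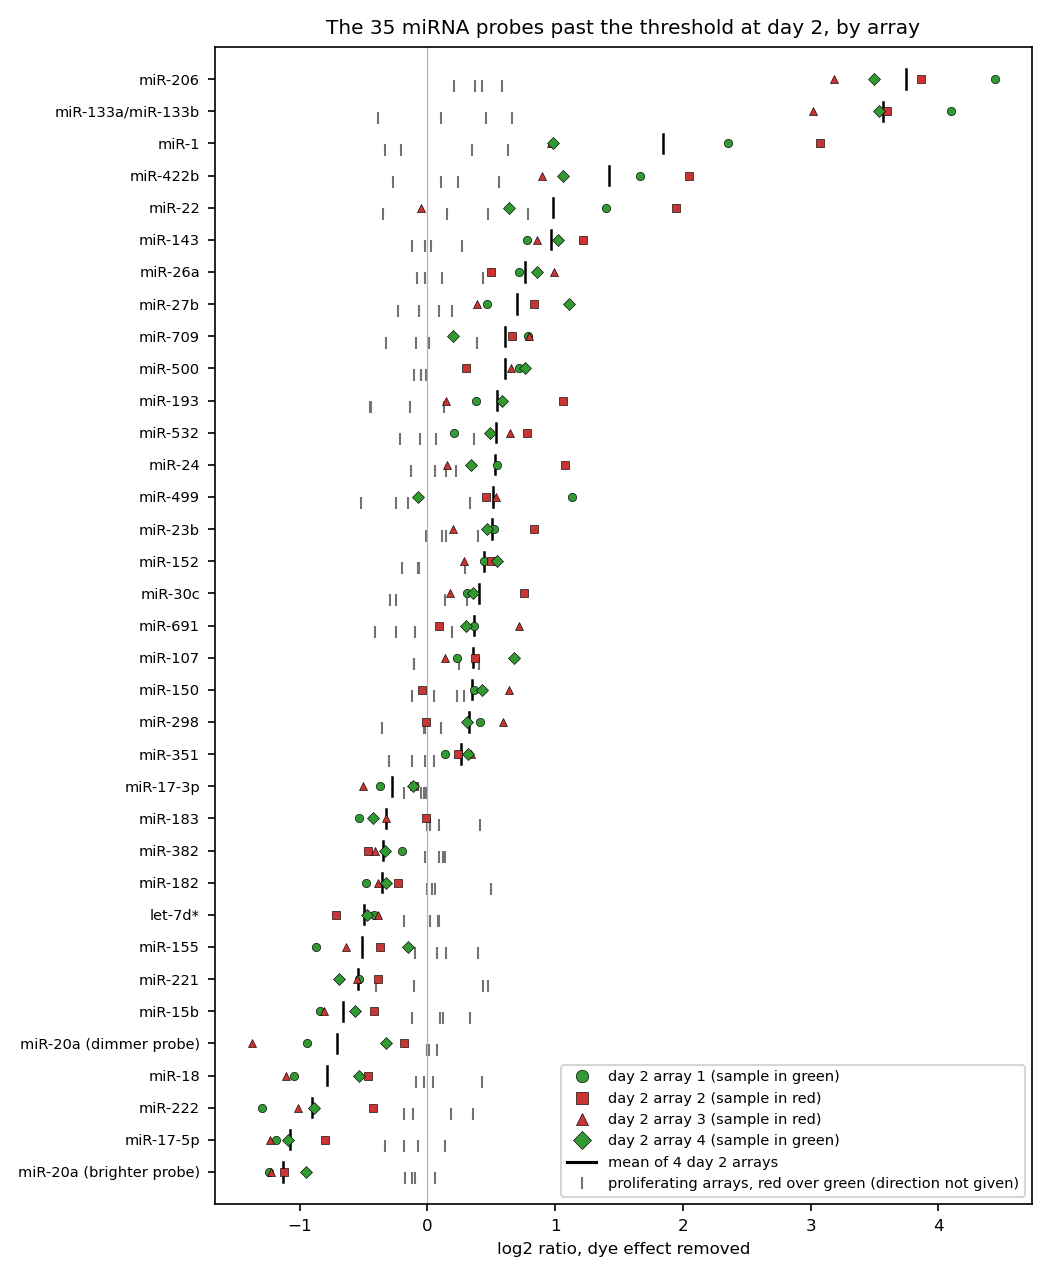
The log2 ratio of day 2 sample over proliferating pool (horizontal axis) on each of the 4 day 2 arrays for the 35 probes past the threshold (rows), coloured by the dye that held the sample, with the mean as a black line and the red-over-green values of the 4 proliferating arrays as grey ticks. miR-206 and miR-133a/miR-133b stand above 3 on every day 2 array, and for 4 probes, miR-22, miR-499, miR-150 and miR-298, 1 array lies below 0.

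In the plot of values by array, 31 of the 35 probes lay on the same side of 0 on all 4 day 2 arrays, against 52 of the 180 tested. For 16 probes, 8.89% of those tested, the 4 day 2 values lay on 1 side and each was larger than any value on the 4 proliferating arrays, where sample and pool came from the same stage. All 16 also passed the test. The 8 on the high side were the probes of miR-1, miR-206 and miR-133a/miR-133b, and those of miR-26a, miR-27b, miR-143, miR-422b and miR-500. The 8 on the low side were both miR-20a probes, miR-17-5p, miR-18, miR-222, miR-15b, let-7d* and miR-382. Without day 2 array 3 the number was 25, but fewer arrays make this condition easier to meet.

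The muscle-specific miRNAs led the comparison. Of 6 such probes on the array 5 were tested. Of these 4 rose, with miR-499 only at the threshold and near background, and 1 did not pass. The 5 had a median log2 ratio of 1.85 beside -0.01 over all tested probes. miR-206, which is restricted to skeletal muscle and is known to promote withdrawal from the cell cycle, had background-subtracted intensities of 22292, 18873, 21922 and 25182 in the day 2 channel of arrays 1 to 4 and of 1239, 1363, 1628 and 2293 in the pool channel. Every day 2 value was thus above every pool value. The log2 ratios were 4.44, 3.87, 3.18 and 3.49, and the fit gave 3.75 (SE 0.21, SD 0.54, n = 4), a 13.4-fold rise with an adjusted p of 6.70e-13 (limma). The pool channel, of proliferating cells, passed the detection level on all 4 arrays.

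miR-133a and miR-133b share a probe and cannot be separated. miR-133 represses serum response factor and is known to favour myoblast proliferation in this line. Its intensities were 8176, 3617, 5416 and 6542 in the day 2 channel and 495.8, 383, 695.2 and 516.5 in the pool channel. The 2 sets did not overlap, and the log2 ratios were 4.10, 3.60, 3.02 and 3.53. The fit gave 3.56 (SE 0.17, SD 0.44, n = 4), an 11.8-fold rise with an adjusted p of 3.75e-14 (limma). A probe for macaque and orangutan miR-133a gave 3.34 (SE 0.19) with an adjusted p of 1.95e-11 (limma, over the 362 tested probes without a mouse name).

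miR-1, which represses the histone deacetylase HDAC4 and so favours muscle gene expression, was much dimmer. Its day 2 intensities were 659.8, 823.5, 409.5 and 366 and its pool intensities 168.2, 92, 320.2 and 193.5. The pool passed the detection level on 1 of 4 arrays, and the day 2 channel on all 4. The log2 ratios were 2.36, 3.08, 0.97 and 0.98, so arrays 1 and 2 were far above arrays 3 and 4. The fit gave 1.85 (SE 0.31, SD 1.05, n = 4), a 3.59-fold rise with an adjusted p of 6.96e-05 (limma). This fold is set against a pool level that was mostly not above background, so its size is uncertain. The SD over the 4 day 2 arrays is larger than the SE implies, because the SE rests on 1 spread for all 20 arrays.

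Probes for miR-1 of other species gave the same picture. The rat probe had log2 ratios of 3.67, 2.26, 1.85 and 1.30 and a fitted 2.27 (SE 0.44, adjusted p 0.00207, limma). The insect probe had 2.30, 2.23, 0.67 and 1.41 and a fitted 1.65 (SE 0.24, adjusted p 7.95e-05, limma). Both were above 0 on all 4 arrays. Of all 362 tested probes without a mouse name, 21, or 5.8%, passed the threshold.

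miR-499, encoded in an intron of the slow myosin gene Myh7b, lay at the threshold. Its log2 ratios were 1.13, 0.46, 0.54 and -0.08, with a fitted 0.51 (SE 0.18, adjusted p 0.0471, limma), and both channels passed the detection level on 1 of 4 arrays. On the proliferating arrays neither channel passed that level, so miR-499 entered the test through another stage. Without array 1 the value was 0.29 with an adjusted p of 0.409, without array 2 the adjusted p was 0.0800, without array 3 it was 0.129, and without proliferating array 4 it was 0.0559 (limma). miR-486, encoded in the ankyrin gene Ank1, had log2 ratios of 0.11, 0.08, -0.14 and 0.05 and a fitted 0.03 (SE 0.10, 95% interval -0.19 to 0.25, adjusted p 0.884, limma). miR-208, the heart myosin miRNA, was not tested: its day 2 channel read 145, 154.8, 311.5 and 178 and its pool channel 172.5, 121.2, 338 and 208.5.

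**Figure D2:**
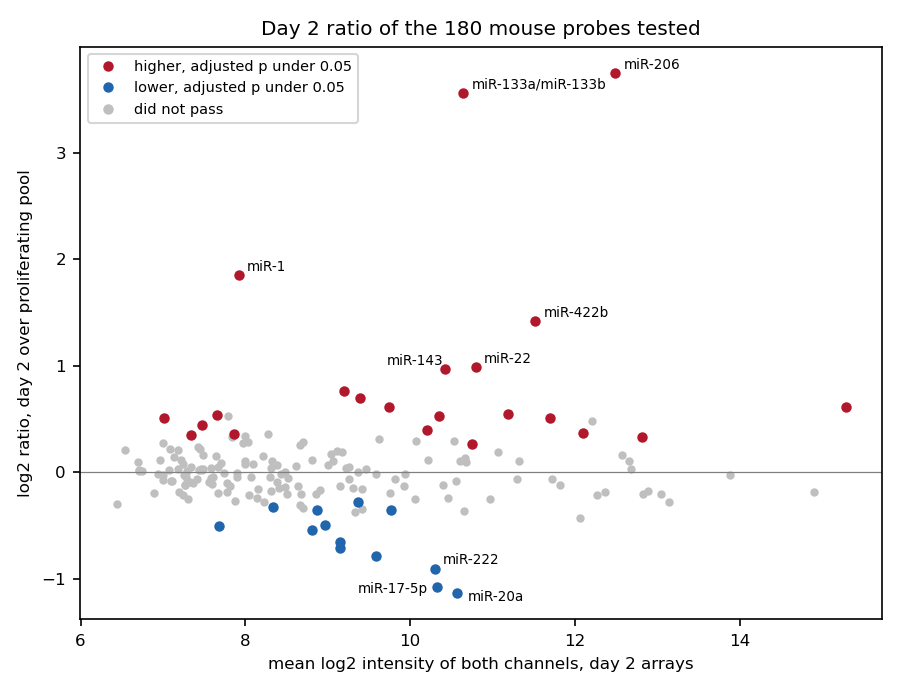
The log2 ratio at day 2 (vertical axis) against the mean log2 intensity of both channels on the day 2 arrays (horizontal axis) for the 180 tested mouse probes, 1 point per probe, with names at a log2 ratio of 0.9 or more in size. The probes past the threshold run from dim ones near the left edge to miR-709 at the right edge, and miR-206 combines a high signal with the highest ratio, 3.75.

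Beyond the muscle-specific set, 13 miRNAs known to promote muscle differentiation were tested. In this list 5 rose, none fell and 8 did not pass, with a median log2 ratio of 0.29, beside 12.2% of all tested probes that rose and an overall median of -0.01. miR-422b, the name then used for the 3p arm of miR-378, a miRNA from an intron of Ppargc1b that represses the inhibitor MyoR, rose most. Its log2 ratios were 1.67, 2.05, 0.90 and 1.06, from intensities of 6686, 2746, 6891 and 5182 at day 2 and 2274, 772.5, 2579 and 2344 in the pool. Day 2 was above the pool on every array, although array 2 was dim in both channels. The fit gave 1.42 (SE 0.17, SD 0.53, n = 4), a 2.67-fold rise with an adjusted p of 1.81e-06 (limma). The probe named miR-378, for the other arm, gave 0.81, 0.03, -0.20 and -0.06 and a fitted 0.15 (SE 0.15, adjusted p 0.589, limma), and its pool channel passed the detection level on none of the 4 arrays.

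miR-26a, which represses the methyltransferase EZH2, had log2 ratios of 0.71, 0.50, 0.99 and 0.86. The lowest of these lay above the largest size on the proliferating arrays, 0.43. The fit gave 0.76 (SE 0.12, SD 0.21, n = 4), a 1.70-fold rise with an adjusted p of 2.77e-05 (limma). miR-22, a miRNA abundant in heart and skeletal muscle, was scattered, with 1.40, 1.94, -0.05 and 0.64 and a fitted 0.98 (SE 0.22, SD 0.87, adjusted p 0.00216, limma). Array 3 lay just below 0 for it, and on the proliferating arrays its sizes reached 0.78.

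miR-27b and miR-24, the other members that rose, come with miR-23b from a cluster on chromosome 13. miR-27b, which represses Pax3, a transcription factor of muscle progenitors, gave log2 ratios of 0.46, 0.84, 0.38 and 1.10 and a fitted 0.70 (SE 0.14, adjusted p 0.000656, limma). miR-23b gave 0.52, 0.83, 0.20 and 0.47 and a fitted 0.50 (SE 0.11, adjusted p 0.00121, limma). miR-24, which is held down by TGF-beta in myoblasts, gave 0.55, 1.08, 0.15 and 0.34 and a fitted 0.53 (SE 0.13, adjusted p 0.00511, limma). The 3 probes were above 0 on all 4 arrays, with array 3 lowest in each. Without array 2 miR-24 fell to 0.33 with an adjusted p of 0.0800 (limma).

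The related cluster on chromosome 8 holds miR-23a, miR-27a and a second copy of miR-24, whose mature sequence is the same. miR-27a, which differs from miR-27b at C19U counted from the 5′ end, had log2 ratios of -0.11, 0.15, 0.28 and 0.09 and a fitted 0.10 (SE 0.14, adjusted p 0.711, limma). miR-23a had a fitted 0.11 (SE 0.14, adjusted p 0.695, limma). Whether the b-type and a-type probes differ from each other was not tested. Of the whole miR-23/24/27 list of 5 tested probes 3 rose and 2 did not pass, and the median was 0.50.

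The remaining members of the promoter list that did not pass included the miR-29 family, which targets Yin Yang 1 and collagens. miR-29a gave -0.28, miR-29b 0.00 and miR-29c -0.15, with adjusted p from 0.419 to 0.991 (limma). miR-503 and miR-424, from the X-linked cluster that also holds miR-351, gave 0.29 (adjusted p 0.0736) and 0.33 (adjusted p 0.0971, limma). miR-351 itself, with log2 ratios of 0.14, 0.24, 0.34 and 0.32, passed with a fitted 0.26 (SE 0.09, adjusted p 0.0355, limma), and lost the call without any 1 of the day 2 arrays (adjusted p 0.0557 to 0.151).

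The rises outside these lists were modest. miR-143, known from smooth muscle and fibroblasts, had log2 ratios of 0.78, 1.22, 0.86 and 1.02, which lay close together and above the largest proliferating size of 0.27. The fit gave 0.97 (SE 0.12, SD 0.19, n = 4), a 1.96-fold rise with an adjusted p of 2.04e-06 (limma). Its cluster partner miR-145 gave -0.20, 0.01, -0.16 and 0.03 and a fitted -0.08 (SE 0.12, adjusted p 0.711, limma). The miR-145 probe passed the detection level on none of the 4 day 2 channels and on 1 of the 4 pool channels.

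miR-500 and miR-532, from an X-linked cluster within an intron of Clcn5, moved together. miR-500 gave 0.71, 0.30, 0.66 and 0.76 and a fitted 0.61 (SE 0.09, adjusted p 2.77e-05, limma). miR-532 gave 0.21, 0.78, 0.65 and 0.49 and a fitted 0.53 (SE 0.12, adjusted p 0.00140, limma). Array 2 was lowest for the first and highest for the second. miR-188 of the same cluster had a fitted 0.27 (SE 0.10, adjusted p 0.0689, limma) and passed the detection level in each channel on 1 of 4 arrays.

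miR-709 was the brightest probe that rose, with day 2 intensities of 51474, 45331, 51993 and 60085 and pool intensities of 22004, 48085, 27079 and 31744. Its log2 ratios were 0.79, 0.66, 0.79 and 0.20, and the fit gave 0.61 (SE 0.11, adjusted p 0.000246, limma). On array 2 the pool channel was the brighter one before normalisation. The call was lost with print-tip loess, at 0.18 (adjusted p 0.127, limma), and in 2 of the 6 orientations of the proliferating arrays as control, with adjusted p of 0.0907 and 0.0535. These intensities are among the brightest on the arrays, and the files give no saturation flag. miR-193, from the Mir193a locus, gave 0.38, 1.06, 0.15 and 0.59 and a fitted 0.54 (SE 0.16, adjusted p 0.0147, limma), but 0.36 with an adjusted p of 0.129 without array 2 and an adjusted p of 0.0597 without array 4.

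The other 6 rises were small, with fitted values from 0.33 to 0.44. miR-152, a regulator of DNA methyltransferase 1, had a fitted 0.44 (adjusted p 0.0227), miR-30c, of a family with roles in muscle and heart, 0.40 (adjusted p 0.0227), and miR-691 0.37 (adjusted p 0.0227, limma). miR-107, tied to lipid and acetyl-CoA metabolism through its host Pank1, gave 0.36 (adjusted p 0.0313), miR-150, a lymphocyte miRNA, 0.35 (adjusted p 0.0248), and miR-298 0.33 (adjusted p 0.0322, limma). Each lost the call without day 2 array 1 and without array 4, with adjusted p from 0.0540 to 0.247 (limma), and each also lost it without array 2 or array 3, with adjusted p up to 0.226. miR-298 lay outside the rule for named miRNAs and was added after its values were seen, to complete the 22.

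Among the falls the miR-17-92 cluster stood first. The list of this cluster and its paralogues had 14 probes on the array, of which 8 were tested, 5 fell and 3 did not pass, with a median of -0.49, beside 7.22% of all tested probes that fell and an overall median of -0.01. Members of this cluster restrain E2F1 and p21 and are known for their role in proliferation. miR-17-5p had intensities of 1349, 523, 1248 and 951 in the day 2 channel and 3802, 866, 1847 and 2158 in the pool. Day 2 was the dimmer channel on every array. Its log2 ratios were -1.19, -0.80, -1.23 and -1.09, with a fitted -1.08 (SE 0.13, SD 0.19, n = 4), a 2.11-fold fall at an adjusted p of 1.53e-06 (limma).

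miR-20a, which differs from miR-17-5p at C1U and C12U counted from the 5′ end of miR-17-5p and has the same seed, was read by 2 probes. The brighter gave -1.24, -1.12, -1.22 and -0.95 and a fitted -1.14 (SE 0.15, SD 0.13), a 2.20-fold fall at an adjusted p of 2.44e-06 (limma). The dimmer gave -0.94, -0.18, -1.38 and -0.33 and a fitted -0.71 (SE 0.18, SD 0.55) at an adjusted p of 0.00481 (limma). The dimmer probe spread more widely between arrays, and without array 3 it gave -0.47 at an adjusted p of 0.0928 (limma). Both were below 0 on all 4 arrays.

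miR-18, whose seed differs from that of miR-17-5p at A4G, had log2 ratios of -1.04, -0.47, -1.10 and -0.53 and a fitted -0.79 (SE 0.14, SD 0.33, n = 4), a 1.73-fold fall at an adjusted p of 0.000163 (limma). miR-17-3p, the arm opposite miR-17-5p in the same hairpin, gave -0.37, -0.11, -0.51 and -0.12 and a fitted -0.28 (SE 0.09, adjusted p 0.0258, limma). It lost the call without array 1 (adjusted p 0.156) and without array 3 (adjusted p 0.226). The arms of 1 hairpin thus had fitted values of -1.08 and -0.28, and their difference was not tested. miR-19a, miR-19b and miR-92 of the cluster were too dim to be tested.

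The paralogues from other loci had the seed of miR-17-5p and weaker values. miR-106a, which differs from miR-17-5p at U10A alone, gave -0.28, -0.39, 0.31 and 0.02 and a fitted -0.08 (SE 0.19, 95% interval -0.47 to 0.31, adjusted p 0.819, limma). Its probe was dim, at 138.8 to 208.8 in the day 2 channel. miR-20b gave a fitted -0.19 (SE 0.13, adjusted p 0.373, limma), and miR-106b, which was as bright as miR-17-5p at 695.5 to 1311 in the day 2 channel, gave -0.69, 0.45, -0.68 and -0.07 and a fitted -0.25 (SE 0.18, adjusted p 0.379, limma). Of the 5 tested miRNAs with the seed AAAGUGC among the names looked up, 2 passed.

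**Figure D3:**
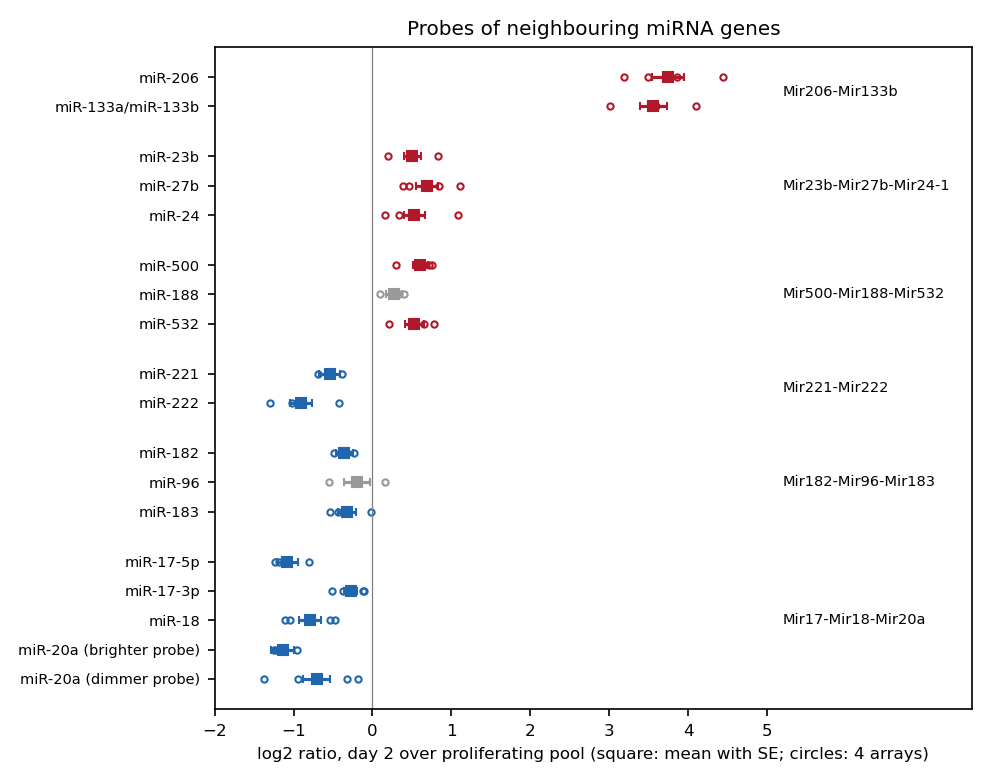
The log2 ratio of day 2 over the proliferating pool (horizontal axis) for the tested probes of 6 groups of neighbouring miRNA genes, with a square for the fitted value with its SE and circles for the 4 arrays; grey marks did not pass. All 5 probes of the Mir17 to Mir20a locus lie below 0 and all 3 of the Mir23b locus above it, and the values within a locus differ in size. The probe shown for Mir133b is shared with miR-133a.

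Neighbouring genes were read together where they lay within 10 kb of each other, since many such miRNAs come from 1 transcript. The tested probes fell into 32 such clusters, of which 17 held a probe past the threshold and 8 held at least 2. In 5 of these 8 the probes past the threshold rose and in 3 they fell, and none held both. Among all tested probes 19.4% passed, 12.2% as rises and 7.22% as falls. The probe of miR-133 counts in 3 of the 8 and that of miR-1 in 2 of these 3, since their genes lie at more than 1 locus. The Mir17 to Mir20a cluster counts 2 probes of miR-20a and both arms of Mir17.

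miR-221 and miR-222, which share the seed GCUACAU, repress the cell cycle inhibitor p27 and are known to delay muscle differentiation. miR-222 had log2 ratios of -1.30, -0.43, -1.01 and -0.89 and a fitted -0.91 (SE 0.14, SD 0.36, n = 4), a 1.87-fold fall at an adjusted p of 4.19e-05 (limma). miR-221 gave -0.53, -0.39, -0.55 and -0.69 and a fitted -0.54 (SE 0.13, SD 0.12), a 1.46-fold fall at an adjusted p of 0.00411 (limma). Both were below 0 on all 4 arrays, with array 2 nearest 0. On the proliferating arrays the sizes reached 0.35 for miR-222 and 0.48 for miR-221.

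These 2 belong to the 6 tested miRNAs known to restrain muscle differentiation, of which 3 fell, none rose and 3 did not pass, with a median of -0.47, beside the 7.22% of all tested probes that fell. miR-155, which represses MEF2A, a transcription factor of muscle genes, gave -0.87, -0.37, -0.64 and -0.16 and a fitted -0.51 (SE 0.13, adjusted p 0.00633, limma), but -0.38 at an adjusted p of 0.0999 without array 1. Its day 2 channel passed the detection level on 2 of 4 arrays and the pool on all 4. A probe for human, zebrafish, chicken and frog miR-155 gave -0.33 (SE 0.14, adjusted p 0.252, limma). miR-31, which represses Myf5 in muscle stem cells, had -0.60, 0.32, -0.80 and -0.64 and a fitted -0.43 (SE 0.16, adjusted p 0.0589, limma), with array 2 on the other side of 0. miR-125b, which targets Igf2 in muscle, gave a fitted -0.37 (SE 0.15, adjusted p 0.0849, limma).

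miR-15b, of a family that targets cyclins and other cell cycle genes, had log2 ratios of -0.84, -0.42, -0.81 and -0.57 and a fitted -0.66 (SE 0.10, SD 0.20, n = 4), a 1.58-fold fall at an adjusted p of 4.19e-05 (limma). miR-16 is encoded beside miR-15b on chromosome 3, at chr3:69009918-69009939 beside chr3:69009775-69009796, and has a second copy beside Mir15a on chromosome 14. It gave -0.42, 0.63, -0.86 and -0.31, so array 2 lay opposite the others, and a fitted -0.24 (SE 0.19, adjusted p 0.451, limma). miR-15a gave -0.25 (adjusted p 0.213, limma) and miR-195 -0.06, and neither passed. Of the 4 tested miRNAs with the seed AGCAGCA among the names looked up, 1 passed. Probes for pig and frog miR-15b gave -0.14 and 0.04, with adjusted p of 0.756 and 0.925 (limma), and passed the detection level in the day 2 channel on 1 of 4 arrays each.

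The last 4 falls were below 1.5-fold. let-7d*, the passenger arm of let-7d, gave -0.42, -0.72, -0.39 and -0.47 and a fitted -0.50 (SE 0.11, adjusted p 0.00145, limma). Its guide arm let-7d had a fitted 0.17 (SE 0.11, adjusted p 0.370, limma). miR-382, from the imprinted Dlk1-Dio3 region, gave -0.20, -0.46, -0.41 and -0.33 and a fitted -0.35 (SE 0.09, adjusted p 0.00633, limma). All 4 values of both let-7d* and miR-382 were larger in size than any on the proliferating arrays.

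miR-182 and miR-183, which are transcribed together with miR-96 and are best known from sensory organs, gave fitted values of -0.36 (SE 0.11, adjusted p 0.0248) and -0.33 (SE 0.11, adjusted p 0.0477, limma). miR-182 lost the call without array 1 (adjusted p 0.151), array 3 (adjusted p 0.0881) or array 4 (adjusted p 0.0664). miR-183 lost it without any of those 3 (adjusted p 0.121 to 0.254) or without proliferating array 2, 3 or 4 (adjusted p 0.0552 to 0.0584). miR-96 had a fitted -0.20 (SE 0.17, adjusted p 0.480, limma). Just inside the threshold were miR-351, miR-499 and miR-183, and just outside were miR-130a at 0.48 (adjusted p 0.0533), miR-31 and miR-30b at 0.30 (adjusted p 0.0684, limma).

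Most other families had no member or 1 member past the threshold. The 7 tested let-7 probes, a family associated with differentiated cells, had a median of -0.02, and the lowest, let-7b, a fitted -0.20 (adjusted p 0.167, limma). The 4 probes of miR-199a, miR-199a*, miR-199b and miR-214, from loci within dynamin genes, had a median of 0.09, and the 3 of the miR-34 family, targets of p53, -0.34. The 3 tested probes of the list of miR-10, miR-99, miR-100 and miR-125 relatives had a median of -0.20. The 14 tested Dlk1-Dio3 probes, with miR-382 the 1 that fell, had a median of -0.07, and the 6 of the Sfmbt2 cluster -0.07. In the miR-30 family 1 of 5 rose, miR-30c, and all 5 were above 0, with a median of 0.30.

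Among markers of other cell types 2 tested probes, miR-143 and miR-150, passed, both as rises, beside 12.2% of all tested probes that rose. Of the 5 smooth muscle and fibroblast markers miR-143 rose and the other 4, among them miR-21 at -0.18, did not pass, and the median was -0.08. The summed intensity of these 5 probes ran from 10084 to 13610 in the day 2 channels and from 8851 to 17323 in the pool channels, so the ranges overlapped. The muscle-specific probes summed to 23727 to 32692 at day 2 and to 2108 to 3630 in the pool, which did not overlap. Both endothelial probes, for the arms of miR-126, were too dim to be tested. Of the 2 tested blood markers miR-150 rose and miR-144 had 0.10, and their list of 6 probes summed to 720 to 1431 at day 2 and to 426 to 1902 in the pool. Among the markers tested for embryonic stem cells (3), epithelium (2), neurons (2) and liver or pancreas (1), none passed. The part of other cell types in the rise of miR-143 and miR-150 was not tested.

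**Figure D4:**
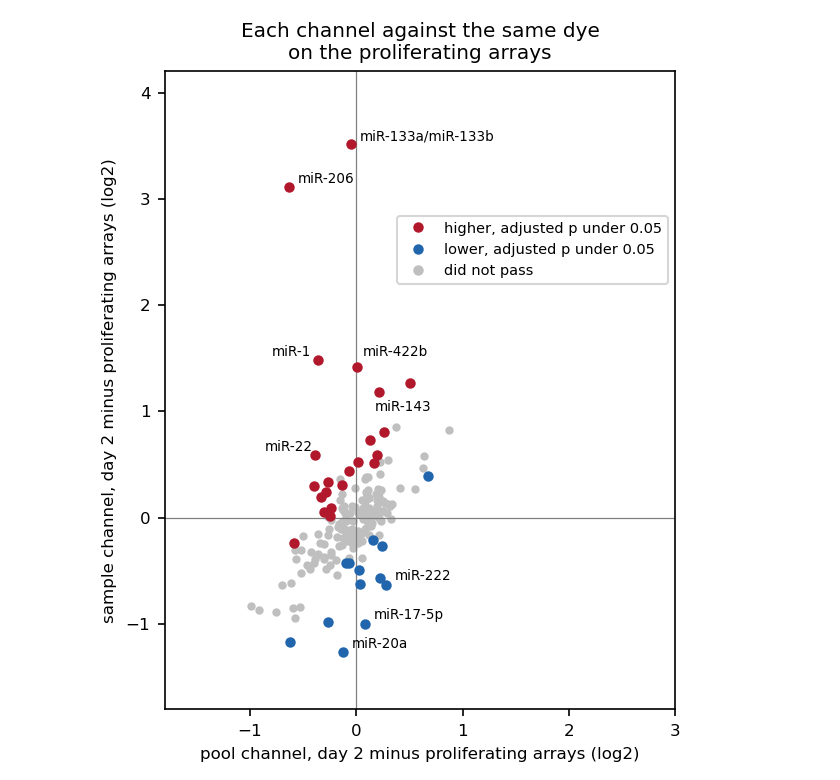
The shift of the sample channel (vertical axis) against that of the pool channel (horizontal axis) on the day 2 arrays, each as the log2 difference from the same dye on the proliferating arrays, for the 180 tested probes. The probes of miR-1, miR-206 and miR-133a/miR-133b lie highest on the vertical axis and at or left of 0 on the horizontal axis, and miR-17-5p and miR-20a lie low on the vertical axis.

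A ratio can move through either channel, so each channel was also set against the same dye on the proliferating arrays. For miR-133a/miR-133b the sample channel was 3.51 higher on the log2 scale and the pool channel changed by -0.05. For miR-206 the shifts were 3.11 in the sample channel and -0.63 in the pool channel. For miR-422b they were 1.42 and 0.01, and for miR-1 1.48 and -0.36. Most of each of these 4 ratios thus lay in the channel taken as the sample.

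The same held for the largest falls. The sample channel shifted by -1.26 for the brighter miR-20a probe and the pool channel by -0.12. For miR-222 the shifts were -0.63 and 0.28. For miR-15b the shifts were -0.63 and 0.03. For miR-27b they were 0.30 and -0.40 and for miR-107 -0.24 and -0.59, so in these the pool channel moved more than the sample channel. That was so for 8 of the 35 probes, the others being miR-24, miR-298, miR-351, miR-532, miR-691 and miR-17-3p. For miR-107 and for miR-17-3p, at 0.40 and 0.68, the sample channel moved against the sign of the ratio. These shifts carry the differences in brightness between arrays and have no test. The channel taken as the sample was chosen as the one farther from the proliferating arrays, so its larger shift follows in part from that choice.

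**Figure D5:**
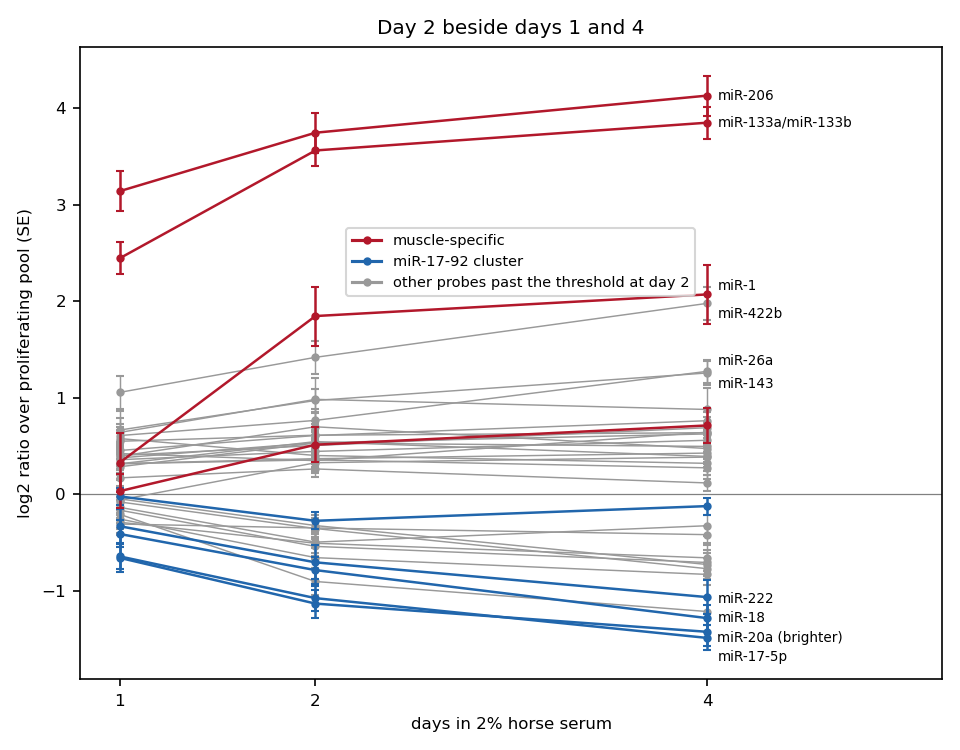
The fitted log2 ratio over the proliferating pool (vertical axis, bars are the SE) at days 1, 2 and 4 in 2% horse serum (horizontal axis) for the 35 probes past the threshold at day 2, with the muscle-specific miRNAs in red, the miR-17-92 cluster in blue and the others in grey. miR-1 goes from 0.33 at day 1 to 1.85 at day 2 and 2.07 at day 4.

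Days 1 and 4 were measured against the same pool as day 2 and on other arrays. At day 1 24 probes passed, 13.3% of those tested, and at day 4 49, or 27.2%. The difference between day 2 and day 1 passed for 1 of the 180 probes, 0.556%, and that between day 4 and day 2 for none (limma), while 15 and 14 had an unadjusted p under 0.05. The probe that differed was miR-133a/miR-133b, at 2.44 on day 1, 3.56 on day 2 and 3.85 on day 4. Its rise from day 1 to day 2 was 1.12 (SE 0.23, adjusted p 0.0159, limma). No probe differed between these days without day 2 array 1, with plain background subtraction, with the means of spots, without the confluent arrays, or with the channels chosen without the muscle-specific miRNAs. Under the last choice day 1 array 4, whose channel distances differed by only 0.0167, had its sample in the other dye.

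The steps of the other leading miRNAs did not pass. miR-206 stood at 3.14, 3.75 and 4.13 on days 1, 2 and 4, and its step from day 1 to day 2 was 0.61 (SE 0.29, adjusted p 0.524, limma). miR-1 stood at 0.33, 1.85 and 2.07, and its step of 1.52 (SE 0.43) had an adjusted p of 0.143 (limma). For miR-1 the ratio at day 1 did not pass (adjusted p 0.525), and the ratios at days 2 and 4 did (limma). miR-422b stood at 1.05, 1.42 and 1.98 and miR-26a at 0.61, 0.76 and 1.27, both past the threshold at each day. The step of miR-26a from day 2 to day 4 was 0.51 (SE 0.16, adjusted p 0.333, limma).

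Among the falls miR-17-5p stood at -0.65, -1.08 and -1.49, and the brighter miR-20a probe at -0.66, -1.14 and -1.43, all past the threshold. miR-222 stood at -0.21, -0.91 and -1.22, and its step from day 1 to day 2 was -0.70 (SE 0.20, adjusted p 0.143, limma). miR-15b stood at -0.26, -0.66 and -0.83 and miR-18 at -0.41, -0.79 and -1.29. miR-31, which did not pass at day 2, stood at 0.02, -0.43 and -1.11, with an adjusted p of 5.96e-06 at day 4 and a step from day 2 of -0.68 (SE 0.22, adjusted p 0.333, limma). Day 2 lay between days 1 and 4 for each miRNA of these 2 paragraphs, but not for all probes past the threshold. miR-27b stood at 0.39, 0.70 and 0.47 and let-7d* at -0.14, -0.50 and -0.33 on days 1, 2 and 4. For miR-22, miR-24 and miR-193 the value was also largest at day 2.

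The authors' deposited table holds 1 value per probe for day 2, with its scale and direction not stated. Over the 180 probes it correlated with the ratios here at 0.968, with a slope of 0.887, a probe being no independent replicate. In the authors' deposited table miR-206 ranked first with 3.54 and miR-133a/miR-133b second, and miR-1 had 1.35 and miR-422b 1.21. The values of miR-206, miR-1 and miR-422b are below the ratios of 3.75, 1.85 and 1.42 from the intensities, and the column's lowest value was -1.54. Of the 9 tested probes from other species that bear the name of a miRNA described above, 3 passed, all of them for miR-1 or miR-133a, and 8 of the 9 had the sign of the mouse probe.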

How the data were processed

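The deposited files hold, per the file headers, the median and mean intensity and a morphological background of each spot and channel, not normalised. The authors' own log2 ratio is that of background-subtracted medians, not centred, and their deposited value table is on a log2-like scale whose making is not given in the sources used here, nor are scanner and software. The median intensities were corrected with normexp (offset 50) and normalised by global loess in limma 3.58.1 (R 4.3.3), with spots lacking a miRNA name at weight 0, before repeat spots of each probe were averaged. Detection meant at least 1 spot above percentile 95 of the 114 control spots (negative or empty) of its array and channel. Probes were tested if detected on at least 3 of 4 arrays of any stage. This was counted in the channel taken as the sample, but in either channel on the proliferating arrays. lmFit and eBayes used all 20 arrays, with a dye term and an effect per stage (15 residual degrees of freedom, prior 7.30). The confluent arrays were turned in the pairing with the largest spread of differences between the pairs. That pairing was chosen from these data, and the shared spread behind each SE rests on it in part. Without the confluent arrays miR-351, miR-499 and miR-183 lost the call. Day 2 was expressed over the pool, without the spread between proliferating cultures. The files name no slide, scan date or batch. Arrays' values are given after removal of the dye term. The fit was tested on simulated data. Clusters join genes up to 10 kb apart.

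The members and lists were chosen with earlier results of these data known. Named were probes past the threshold with 4 arrays on 1 side, all muscle-specific probes, up to 4 members of each other list by p, other-species probes of the first 2 groups' names, and 3 probes on either side of the threshold. Partners in a cluster, hairpin, seed or list were added after their values were seen.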

Additional observations from a re-analysis of the deposited data

Results flagged for a closer look

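The ratio of miR-133a/miR-133b differed between day 2 and day 1, which was tested as a contrast of the fit: the difference was 1.12 on the log2 scale (SE 0.23, adjusted p 0.0159, limma), from 2.44 at day 1 to 3.56 at day 2. It did not pass without day 2 array 1, with plain background subtraction, with spot means, without the confluent arrays, or with the channels chosen without the muscle-specific miRNAs, which puts the sample of day 1 array 4 in the other dye. All 4 day 2 arrays lay between 3.02 and 4.10. Among 39 probes screened, none had 1 day 2 array far from the other 3 by Dixon's criterion, where chance would pick out about 5%.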

How the results depend on the processing

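No paired analysis was possible because the labels give no replicate numbers. The count of mouse probes changed at day 2 was 35 and stayed within 1.5 times of it, at 26 to 37, under 13 other settings of normalisation, background, spots, arrays, channel choice and detection. With the proliferating arrays as control it was 23, 15, 23, 31, 18 and 16 over the 6 ways to turn them, and 23 to 36 with 1 array left out. The array left out, here and below, was always a day 2 or a proliferating one. The count of sizes at day 2 against the proliferating arrays beyond all 4 was 16, and 17 to 25 with 1 array left out. Fewer arrays make this condition easier to meet, so these higher counts follow in part from the rule. The count of probes differing between day 2 and day 1, 1 in the main setting, was 2 with print-tip loess or median centring and 0 with plain subtraction, spot means, no confluent arrays, or the channel chosen without muscle-specific miRNAs, and 0 to 2 with 1 array left out. The count of probes differing between day 4 and day 2, 0 in the main setting, was 1 with normexp offset 0. It was 0 with any 1 day 2 or proliferating array left out. Neither difference between days was run with a day 1 or day 4 array left out. The log2 ratio at day 2 of miR-486 reversed to -0.00022 and -0.11 under ways 1 and 2 and was -0.0025 to 0.088 with 1 array left out. The log2 ratio at day 2 of miR-298 reversed to -0.038 with print-tip loess. The cause was not tested. Over 39 probes and 1084 alternatives, 874 kept their direction and, where tested, their side of the threshold, 195 missed it, 11 newly passed it and 4 reversed. The 1084 include the value of each of the 39 probes in the authors' deposited table. These values have no adjusted p and were compared by direction only. In every alternative run that held them 12 of the 35 passed, 7 up (miR-1, miR-26a, miR-133a/miR-133b, miR-143, miR-206, miR-422b, miR-500) and 5 down (miR-15b, miR-17-5p, miR-18, miR-222 and the brighter miR-20a probe). Of these, miR-1 was not in the run that required both channels to be detected on all 4 day 2 arrays. With any 1 day 2 or proliferating array left out 20 of the 35 passed. The filter without confluent arrays was chosen after seeing the data. Signal over background limits the 163 untested probes and some of the tested. Among the latter are miR-499, miR-188, miR-378, miR-145 and, in the pool channel, miR-1.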
